A study of Rattus norvegicus with 10 samples.

Results

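The comparison described here set A7r5 cells carrying an extracellular domain mutant of the bone morphogenetic protein receptor BMPR2 against A7r5 cells carrying the wild-type receptor. A7r5 is a line derived from embryonic rat aorta that the labels class as vascular smooth muscle. It used 4 of the study's 10 single-colour Affymetrix rat arrays, chosen by their labels alone: 2 of the extracellular domain (ED) mutant and 2 of the wild type. The ED construct carries the change that the labels write as T354G, and the wild-type construct is human BMPR2. The 2 arrays of a cytoplasmic tail (CD) mutant and the 2 of the empty vector served as further points of reference and shared the estimate of spread. By their descriptions all 4 groups were stably transfected, although the titles of the empty vector arrays call them native A7r5, and the cells were grown without hypoxia in medium with 10% serum, and harvested when about 50% of the surface was covered. The cells of every group still have their own rat Bmpr2 gene. The labels do not say whether a transfected line is 1 clone or a pool of clones, nor whether its 2 arrays come from separate cultures, so the p-values reflect only how far these arrays spread, and that spread may be technical. A difference between 2 stable lines cannot be told apart from a difference between the clones or pools that were selected.

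BMPR2 is a type II serine/threonine kinase receptor. Bone morphogenetic proteins (BMPs) bring it together with a type I receptor, which then phosphorylates Smad1, Smad5 and Smad8, and these enter the nucleus with Smad4 to switch on genes such as the Id family. The extracellular domain is the part that binds ligand. Germline BMPR2 mutations are the main known cause of heritable pulmonary arterial hypertension, in which the smooth muscle of small lung arteries is remodelled.

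Values are log2 probe set summaries as the authors deposited them, so a difference of 1 is 2-fold. A probe set is the group of short probes that reads 1 transcript. A level was set against the filter level or the middle of all probe sets only to say whether a probe set was dim, and 2 genes' levels were not compared. The 8 arrays correlated with each other at Pearson r of 0.989 to 0.995 across all probe sets. The 2 ED arrays differed by at least 0.5 at 237 probe sets and the 2 wild-type arrays at 131, and an ED array differed from a wild-type array at 281 to 457. The ratio of 3' to 5' control probe sets for GAPDH, a sign of RNA integrity, was 0.37 and 0.38 on the ED arrays and 0.39 and 0.40 on the wild-type arrays on the log2 scale. For actin the same ratio was larger and less even, at 1.08 and 1.14 on the ED arrays and 0.94 and 1.12 on the wild-type arrays. The spiked poly-A controls averaged 7.14 and 7.20 on the ED arrays, against 6.60 and 7.23 on the wild-type arrays. The first wild-type array was thus lower than the other 3 in these controls and in the actin ratio, and its removal, like that of the second, is among the fits given below.

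The labelled cell type was checked against 8 defining markers of smooth muscle. Of these, 5 reached the filter level of log2 4.90 on at least 2 arrays. Smtn, which encodes smoothelin, read 10.47 and 10.46 on the ED arrays and 10.38 and 10.38 on the wild-type arrays. Acta2, which encodes smooth muscle alpha-actin, read 6.41 and 6.22 on the ED arrays and 6.30 and 6.34 on the wild-type arrays. Cnn1, Lmod1 and Myocd, which encode calponin, leiomodin and myocardin, stayed below the filter level on all 8 arrays. Tagln, which encodes the abundant smooth muscle protein transgelin, read 4.944 and 4.875 on the ED arrays and 4.995 and 4.957 on the wild-type arrays, close to the filter level. All 5 defining markers of kidney tubule also reached the filter level, among them Pax8, a transcription factor gene, at 7.29 and 7.03 on the ED arrays and 7.09 and 7.12 on the wild-type arrays. Umod, another of them, lay close to that level, at 4.97 and 4.84 on the ED arrays. Of the markers with a probe set, 4 of 5 for hepatocytes, 4 of 6 for striated muscle and 4 of 6 for intestinal epithelium reached it too. So did 4 of 7 for fibroblasts, 3 of 5 for leukocytes and 0 of 5 for endothelium. The smooth muscle label is therefore borne out by part of its marker list only, and markers of another tissue were read as well. None of the 5 measured smooth muscle markers or the 5 kidney tubule markers passed the test between the ED mutant and the wild type.

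The rat Bmpr2 gene was read by 2 tested probe sets. The brighter one gave 7.003 and 6.791 in ED cells, against 7.22 and 6.95 in wild-type cells. It gave 7.21 and 6.85 in CD cells and 6.66 and 6.70 in empty vector cells. The other gave 5.24 and 5.06 in ED cells, against 5.30 and 5.33 in wild-type cells. The ED and wild-type arrays overlapped at the brighter probe set, and at the other both ED arrays were the lower ones. The differences of -0.19 (SE 0.14) and -0.16 did not pass the test (limma, adjusted p = 0.67 and 0.618). Both read the rat gene by their annotation, and the transfected receptor is human. Whether their probes also read the human transcript was not tested, so they are not taken to measure how much of either construct was made.

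Of 19534 probe sets tested, 55 (0.282%) changed between ED and wild-type cells, with a limma p adjusted by the Benjamini-Hochberg method under 0.05 taken as changed. Of all tested probe sets, 44 (0.225%) were higher in ED cells and 11 (0.0563%) were lower. The 44 higher probe sets held 36 named genes and the 11 lower ones 8 named genes. The rises ran from 1.45-fold to 2.59-fold with a median of 1.69-fold, and the falls from 1.44-fold to 1.75-fold with a median of 1.59-fold. The leading rises were in the skeletal muscle actin gene Acta1, the inositol transporter gene Slc5a11, the haem carrier gene Hpx and the lysosomal protease gene Ctsh. The matrix genes Fbln2 and Ccdc80 and the transcription factor gene Maf led the falls. The median difference over all tested probe sets was -0.00472. These counts depend on every array: limma called 0 probe sets when either ED array or either wild-type array was left out, with 1483 to 2221 at an unadjusted p under 0.05, and 21 to 31 when an empty vector or CD array was left out. All 55 probe sets, or the 53 that were still tested, kept their direction in each of those fits. The fits reuse the arrays by which the 55 were chosen, so this is a description and no independent evidence. Of the 55, 2 passed the filter through their ED arrays alone, Slc7a7 and an unnamed probe set, so they had to be higher in ED cells.

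**Figure D1:**
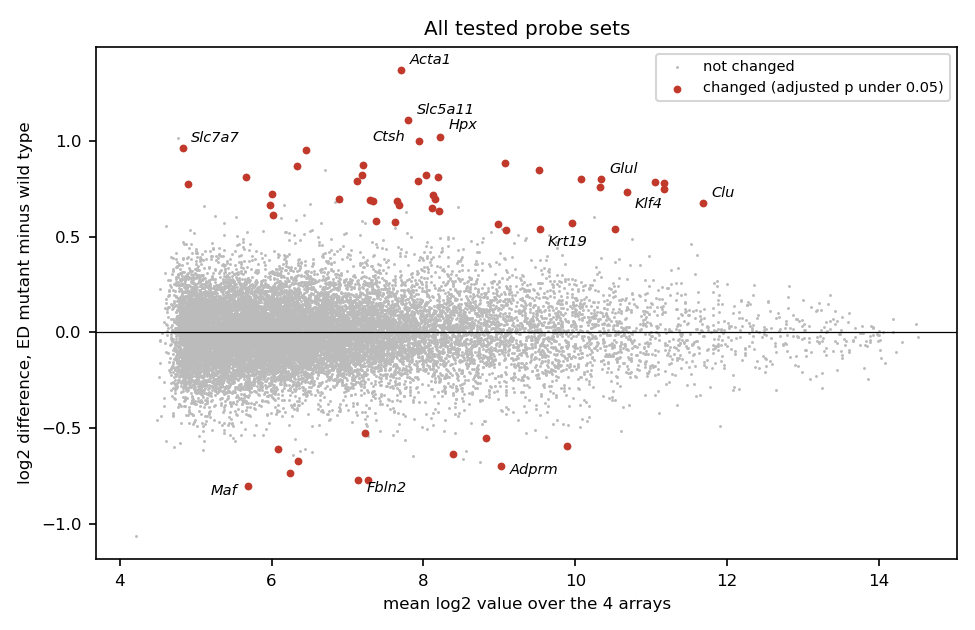
Difference between ED mutant and wild-type cells (log2, ED minus wild type, vertical axis) against the mean log2 value over the 2 ED and 2 wild-type arrays (horizontal axis) for all 19534 tested probe sets, 1 point each. Red points are the 55 changed probe sets, 44 above and 11 below 0, and they lie at all but the highest levels, while Acta1 stands furthest above 0 at 1.37.

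Acta1 had the largest rise. It encodes skeletal muscle alpha-actin, the thin filament actin of adult skeletal muscle, whose gene is driven by serum response factor (SRF) at short DNA elements called CArG boxes. Its values were 8.39 and 8.38 in ED cells, against 7.23 and 6.80 in wild-type cells, with 6.99 and 7.10 in CD cells and 6.42 and 5.99 in empty vector cells. Both ED arrays lay above all 6 others, and the empty vector arrays were the lowest. The difference from wild type was 1.37 (SE 0.16), or 2.59-fold (limma, adjusted p = 0.0141). ED cells also exceeded CD cells by 1.34 (adjusted p = 0.00575) and empty vector cells by 2.18 (adjusted p = 0.00061), whereas wild-type cells exceeded empty vector cells by 0.81 without passing the test (adjusted p = 0.175).

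The rise of Acta1 was not shared by the rest of its list. Of 18 measured striated muscle genes, 1 rose and 0 fell, against 0.321% of 10904 named genes that rose and 0.0642% that fell. The median difference of the list was 0.04 and that of all genes -5.5e-05. Myh3, the embryonic skeletal myosin heavy chain gene, read 6.47 and 6.44 in ED cells, against 7.12 and 6.85 in wild-type cells, with 7.49 and 7.46 in CD cells. Both ED arrays were the lower ones, but the difference of -0.53 did not pass the test (adjusted p = 0.11). Among 20 measured genes of the smooth muscle contractile apparatus, 0 changed and the median difference was -0.00877. At an unadjusted p under 0.05 the same limma fit held 2 of these 20, and 2152 of all tested probe sets (11%). The lowest adjusted p in that list belonged to the tropomyosin gene Tpm1, at -0.33 (adjusted p = 0.26).

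Crip1, which encodes a small LIM-domain protein, was the 1 changed gene among 22 measured genes of actin regulation and SRF targets. It read 7.76 and 7.54 in ED cells, against 6.66 and 6.88 in wild-type cells, with 6.94 and 6.75 in CD cells and 6.15 and 6.44 in empty vector cells. Both ED arrays were the highest of the 8. Crip1 rose by 0.88 (SE 0.13), or 1.84-fold (adjusted p = 0.0398), where 0.321% of all named genes rose. In that list 12 of 22 genes had both ED arrays above both wild-type arrays and 3 had both below, where 22.9% of all named genes had both above and 22.7% both below. The members with the next lowest p were Ccn2, a matricellular growth factor gene, at 0.52 (adjusted p = 0.162), and Fhl2, a LIM-domain cofactor gene, at 0.39 (adjusted p = 0.175). Marcks, which encodes a protein kinase C substrate that binds and cross-links actin, rose outside the list. Its leading probe set read 10.49 and 10.46 in ED cells, against 9.66 and 9.69 in wild-type cells, a difference of 0.80, or 1.74-fold (adjusted p = 0.0141). The ED arrays again stood above all others. Of its 5 tested probe sets, 2 were called, at 0.80 and 0.76, and the other 3 gave 0.60, 0.32 and 0.06, so the size of the rise depends on the probe set.

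The 300 bases around the annotated start of the Acta1 gene, from 250 before it to 50 after it, are printed to show where the CArG box lies in the promoter of the gene with the largest rise. The sequence is from RefSeq on the rat build GRCr8, minus strand, at chr19:68784145-68784444, with the CArG box in capitals beginning 94 bases before the start.
Acta1: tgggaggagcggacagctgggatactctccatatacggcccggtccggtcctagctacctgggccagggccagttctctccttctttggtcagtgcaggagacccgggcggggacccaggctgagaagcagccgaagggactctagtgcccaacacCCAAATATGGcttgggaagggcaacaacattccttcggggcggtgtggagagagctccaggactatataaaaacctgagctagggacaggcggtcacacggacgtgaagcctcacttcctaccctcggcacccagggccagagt

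A promoter of this kind was given for 29 of the 36 named genes that rose and for all 8 that fell. The CArG box, searched by its consensus on both strands, was found in 3 of the 29 and in 0 of the 8, while 1.64% of 27457 rat promoters of the same length held it. The 3 genes were Acta1, Hpx and Rnf128. Their matches are set out below with 10 bases on each side and the box in capitals. The Hpx stretch is at chr1:169352244-169352273 on the minus strand, with its box beginning 108 bases before the start. The Rnf128 stretch is at chrX:108028184-108028213 on the plus strand, with its box beginning 194 bases before the start.
Acta1: tgcccaacacCCAAATATGGcttgggaagg
Hpx: atgtcgtctgCCAATATTGGcatagtcatt
Rnf128: aagtattcttCCTAAAAAGGacaggacaca

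The 3 boxes differ in the bases between their outer CC and GG, and a match of letters does not show that a factor binds there. The motif GGCGCC, a GC-rich element described at BMP target genes, was present in 5 of the 29 promoters and 2 of the 8, against 11.8% of all promoters. The 5 were Ckmt1, Crip1, Irf1, Lurap1l and Parp12, none of which had a CArG match. Further motifs were searched as well. Apart from the site of STAT proteins given below, each of these was found in 1 of the 29 promoters (3.4%). Of all promoters, 3.76%, 6.65% and 7.33% held them. In the 8 promoters, 1 of these motifs was found in 1 promoter and the others in 0. Among the rises the CArG box stood furthest above its background of all motifs searched, so its share is the most extreme of several. These counts are descriptions and no test was made of them.

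Genes of transport and metabolism are described next. Slc5a11 encodes a sodium-coupled transporter of myo-inositol. It read 8.27 and 8.44 in ED cells, against 7.27 and 7.22 in wild-type cells, with 7.10 and 7.48 in CD cells and 6.03 and 6.39 in empty vector cells. The ED arrays were the highest and the empty vector arrays the lowest, with wild-type and CD arrays between them and overlapping each other. Slc5a11 rose by 1.11 (SE 0.15), or 2.16-fold (adjusted p = 0.0203). Slc7a7, the light subunit of a transporter of cationic and large neutral amino acids, read 5.51 and 5.11 in ED cells, against 4.45 and 4.25 in wild-type cells. All 6 wild-type, CD and empty vector arrays lay below the filter level, so Slc7a7 was tested only because its ED arrays were high. Its difference of 0.96 (adjusted p = 0.0398) is given as a description, and that between ED and CD cells did not pass the test (0.77, adjusted p = 0.0529). These were the 2 genes called among 32 measured solute carriers of sugars, amino acids and organic ions, 1 of them through its ED arrays alone. Of all named genes 0.321% rose. The glucose transporter gene Slc2a1 followed at 0.46 (adjusted p = 0.0836), and the median of the list was -0.0087. Slc22a23, an orphan member of the organic ion transporter family named after its values were seen, read 8.46 and 8.54 in ED cells, against 7.81 and 7.80 in wild-type cells, and rose by 0.70 (adjusted p = 0.0152). Its wild-type arrays were below all 6 others.

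Glul, which encodes glutamine synthetase, rose at all 3 of its tested probe sets, by 0.80, 0.81 and 0.67 (adjusted p = 0.0141, 0.0203 and 0.0448). At the first of these it read 10.83 and 10.66 in ED cells, against 10.00 and 9.89 in wild-type cells, with 9.63 and 9.59 in CD cells and 9.71 and 9.69 in empty vector cells. Wild-type arrays stood above the CD and empty vector arrays, and the ED arrays above all. Cyb5a, the gene of the electron carrier cytochrome b5, read 11.57 and 11.54 in ED cells, against 10.80 and 10.75 in wild-type cells, a rise of 0.78, or 1.72-fold (adjusted p = 0.0141). Coq3, a methyltransferase gene of ubiquinone synthesis, read 6.77 and 6.76 in ED cells, against 5.95 and 5.85 in wild-type cells, a rise of 0.87, or 1.83-fold (adjusted p = 0.0472). In both genes the ED arrays were clear of the other 6. Coq3 was the only 1 of 29 measured genes of ubiquinone synthesis and oxidative phosphorylation to change, and that list's median was 0.00823. Of all named genes 0.321% rose. Sult2b1, a sulfotransferase gene for cholesterol and other hydroxysteroids, rose by 0.72, or 1.65-fold (adjusted p = 0.0448), while its other probe set gave 0.55 (adjusted p = 0.0651).

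Kinase and membrane regulators were also among the leading rises. Sgk1, a kinase gene induced by serum and glucocorticoids that promotes sodium transport, read 11.37 and 11.51 in ED cells, against 10.62 and 10.70 in wild-type cells, and rose by 0.78, or 1.72-fold (adjusted p = 0.0141). Fxyd3, which encodes a small regulator of the sodium pump, read 7.57 and 7.47 in ED cells, against 6.73 and 6.73 in wild-type cells, and rose by 0.79, or 1.73-fold (adjusted p = 0.0141). Rnf128, an E3 ubiquitin ligase gene known from T cell anergy, read 11.50 and 11.59 in ED cells, against 10.75 and 10.83 in wild-type cells, and rose by 0.75, or 1.68-fold (adjusted p = 0.0141). In all 3 genes both ED arrays lay above the other 6. Flrt3, a transmembrane adhesion and guidance gene, read 8.37 and 8.51 in ED cells, against 7.65 and 7.58 in wild-type cells, with 7.02 and 7.20 in CD cells. It rose by 0.82, or 1.77-fold (adjusted p = 0.0188), and was the 1 changed gene among 31 measured genes of gap junctions, adhesion and guidance. Of all named genes 0.321% rose. The CD arrays lay below the wild-type arrays, and ED cells exceeded CD cells by 1.33 (adjusted p = 0.00153). Lurap1l rose by 0.95, or 1.94-fold (adjusted p = 0.0299), and Prr15l by 0.81, or 1.76-fold (adjusted p = 0.0456).

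Klf4 encodes a zinc finger transcription factor of epithelia that also represses smooth muscle differentiation genes. It read 11.05 and 11.04 in ED cells, against 10.33 and 10.29 in wild-type cells, with 10.19 and 10.27 in CD cells and 10.15 and 10.27 in empty vector cells. The 6 arrays other than ED lay within a narrow band, and the ED arrays stood clear above it. Klf4 rose by 0.74 (SE 0.09), or 1.67-fold (adjusted p = 0.0141). It was the 1 changed gene among 28 measured immediate early and stress transcription factors, where 0.321% of all named genes rose. Of the 28, 15 had both ED arrays above both wild-type arrays and 6 had both below, against 22.9% and 22.7% of all named genes. The next members, Maff at 0.46, Jun at 0.45 and Ier5 at 0.37, did not pass the test (adjusted p = 0.132, 0.145 and 0.148), and Fosl1 stood at -0.61 (adjusted p = 0.168).

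Several rises were in genes typical of epithelia and of secretory organs. In bulk RNA from a culture, more cells of a type and more RNA per cell cannot be told apart. Lgals4, a galectin gene of the gut epithelium, read 9.90 and 9.99 in ED cells, against 9.12 and 9.07 in wild-type cells, with 8.88 and 8.97 in CD cells and 8.67 and 8.64 in empty vector cells. No 2 constructs overlapped, and the ED arrays were the highest. Lgals4 rose by 0.85 (SE 0.09), or 1.81-fold (adjusted p = 0.0141). Krt19, a keratin gene of simple epithelia, read 9.78 and 9.81 in ED cells, against 9.29 and 9.23 in wild-type cells, with 9.03 and 9.13 in CD cells and 9.53 and 9.49 in empty vector cells. It rose by 0.54, or 1.45-fold, relative to the wild type (adjusted p = 0.0443). The empty vector arrays lay between, and the difference between ED and empty vector cells, 0.29, did not pass the test (adjusted p = 0.131).

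Lgals4 and Krt19 were the 2 changed genes among 30 measured genes of epithelial junctions and keratins, and 0 fell. The shares over all named genes were 0.321% that rose and 0.0642% that fell. Lgals4 is a galectin gene, neither a junction nor a keratin gene, and is counted in the intestinal list as well. The lists were chosen with earlier results of these data known, so the counts and the median of this list are descriptions only. In that list 15 genes had both ED arrays above both wild-type arrays and 6 had both below, against 22.9% and 22.7% of named genes. The list's median difference of 0.15 was the highest of the 30 lists. Cdh1, the E-cadherin gene, came next with 10.27 and 10.24 in ED cells, against 9.65 and 9.70 in wild-type cells, 9.53 and 9.80 in CD cells and 9.22 and 9.26 in empty vector cells. Its ED arrays stood above the other 6, among which wild-type and CD arrays overlapped, but the difference from the wild type of 0.58 (SE 0.10) missed the threshold (adjusted p = 0.0651). Krt18 stood at 0.41 (adjusted p = 0.0953), Krt8 at 0.46 (adjusted p = 0.166) and the basal keratin gene Krt5 at -0.57 (adjusted p = 0.11). Among 15 measured mesenchymal and fibroblast genes 0 changed. In limma 4 of them had an unadjusted p under 0.05, as had 1310 of 10904 named genes. The list had 9 genes with both ED arrays below both wild-type arrays and 2 with both above, against 22.7% and 22.9% of named genes. The list's median of -0.09 was the lowest of the 30 lists. S100a4, a calcium-binding protein gene common in fibroblasts, read 7.63 and 7.65 in ED cells, against 8.13 and 8.07 in wild-type cells (-0.45, adjusted p = 0.094). The mesenchymal cadherin gene Cdh2 stood at -0.29 (adjusted p = 0.261) and the transcription factor gene Zeb2 at -0.49 (adjusted p = 0.291).

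Of 8 epithelial defining markers, 6 reached the filter level on at least 2 arrays, and of these 4 had a higher mean in ED than in wild-type cells and 2 a lower one. Krt19, already named among the rises, was the only marker to pass the test. Summed on the linear scale, the 8 gave a log2 level of 12.59 and 12.63 in ED cells, against 12.17 and 12.15 in wild-type cells. The level was 12.01 to 12.12 in CD and empty vector cells. Such a sum is carried by bright probe sets, among them Krt18 at 11.79 and 11.82 in ED cells, and hardly reflects dim ones. Epcam and Cldn4, defining markers of most simple epithelia, were below the filter level on all 8 arrays, and Cldn7 and Esrp1 lay close to it. The part of a change in cell type in the rises was not tested.

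**Figure D2:**
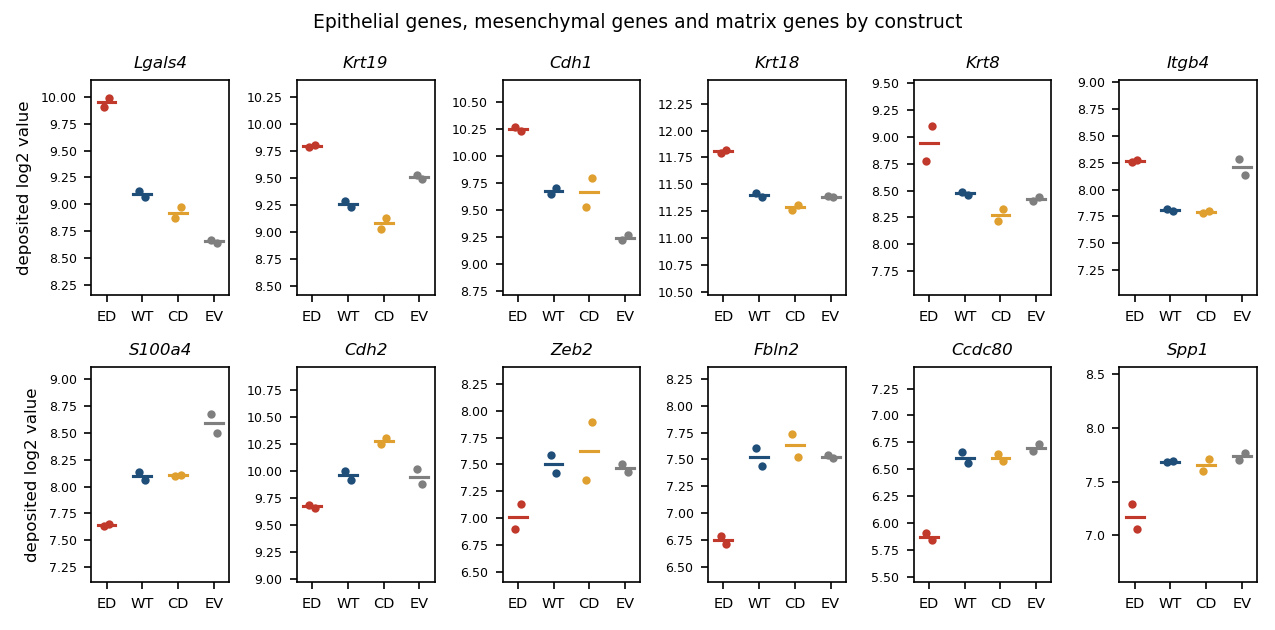
Deposited log2 values (vertical axis, a separate range for each gene) of 6 epithelial genes in the upper panels and of 3 mesenchymal and 3 matrix genes in the lower panels. Each point is 1 array and each bar the mean of 2 arrays of cells with the ED mutant (ED), wild-type BMPR2 (WT), the CD mutant (CD) or the empty vector (EV), and the choice of genes was made with their values known. The ED points lie above the wild-type points in all 6 upper panels and below them in all 6 lower panels, which the choice of genes fixes: other members of the same lists lie the opposite way, and only Lgals4, Krt19, Fbln2 and Ccdc80 passed the test.

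Liver-type plasma protein genes and intestinal genes were 2 further lists with few changes. Hpx encodes hemopexin, the plasma carrier of free haem. It read 8.91 and 8.54 in ED cells, against 7.66 and 7.75 in wild-type cells, with 7.61 and 7.49 in CD cells and 7.45 and 7.27 in empty vector cells, and rose by 1.02 (SE 0.13), or 2.03-fold (adjusted p = 0.0152). The ED arrays differed from each other by more than the 2 wild-type arrays did but stayed far above all others. Hpx was the 1 changed gene of 23 measured liver-type plasma protein genes, whose median difference was 0.000175. Of all named genes 0.321% rose. The fibrinogen chain gene Fgb read 6.51 and 6.48 in ED cells, against 6.03 and 5.63 in wild-type cells, 5.47 and 5.58 in CD cells and 4.88 and 4.98 in empty vector cells. Its difference from the wild type, 0.66, did not pass the test (adjusted p = 0.082), while that from empty vector cells, 1.56, did (adjusted p = 0.0012). The retinol carrier gene Rbp4 stood the other way, at -0.53 (adjusted p = 0.105). The albumin gene Alb read 5.72 and 5.77 in ED cells and 5.66 and 5.52 in wild-type cells, near the middle of all probe sets, and Apoa1 was below the filter level.

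Of 19 measured intestinal epithelial genes 2 rose, Lgals4 and Guca2b, and 0 fell, against 0.321% and 0.0642% of all named genes. Lgals4 is the gene already counted in the list of epithelial junctions and keratins. Guca2b, which encodes the gut hormone uroguanylin, read 7.67 and 7.70 in ED cells, against 6.97 and 7.02 in wild-type cells, a rise of 0.69 (adjusted p = 0.0141). Its neighbour in function Guca2a, the guanylin gene, stood at 0.47 (adjusted p = 0.0856). In that list 7 genes had both ED arrays above both wild-type arrays and 0 had both below, against 22.9% and 22.7% of named genes. The median of the list was 0.10. The defining intestinal markers Fabp1 and Fabp2 stayed below the filter level on all 8 arrays, and Vil1 and Cdx2 did not pass the test. Of 17 measured kidney tubule genes 1 rose, Slc5a11, and the median was -0.013. Lect2, a gene of a secreted hepatokine, rose by 0.82, or 1.77-fold (adjusted p = 0.0141), while its second probe set gave 0.39 (adjusted p = 0.181).

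Further rises of this kind, named after their values were seen, were in Foxa2, a transcription factor gene of endoderm-derived organs, Spp2, a gene of a secreted phosphoprotein of liver and bone, and Clu, a gene of a secreted chaperone. Foxa2 read 8.496 and 8.386 in ED cells, against 7.85 and 7.73 in wild-type cells (0.65, adjusted p = 0.0423). Spp2 read 8.42 and 8.54 in ED cells, against 7.79 and 7.73 in wild-type cells (0.72, adjusted p = 0.0203). Clu read 12.08 and 11.96 in ED cells, against 11.34 and 11.35 in wild-type cells (0.68, adjusted p = 0.0247), whereas another of its probe sets gave 0.07 (adjusted p = 0.919). In each of the 3 genes the ED arrays were above all 6 others at the changed probe set. The remaining named rises were in Akr7a2, an aldehyde reductase gene, Ckmt1, a mitochondrial creatine kinase gene, Mapt, the gene of the microtubule protein tau, Tp53inp2, an autophagy regulator gene, Spats2l and Fam167a, with differences of 0.53 to 0.69 (adjusted p = 0.0398 to 0.0448). Other probe sets of 3 of these genes were not called. The second probe set of Spats2l gave 0.08 (adjusted p = 0.85) and that of Tp53inp2 -0.06 (adjusted p = 0.91), while the other 2 of Mapt gave 0.39 and 0.26.

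Ctsh encodes cathepsin H, a lysosomal aminopeptidase that also processes lung surfactant protein. It read 8.52 and 8.35 in ED cells, against 7.41 and 7.46 in wild-type cells, with 7.16 and 7.39 in CD cells and 8.005 and 8.055 in empty vector cells. The empty vector arrays lay between the ED arrays and the rest. Ctsh rose by 1.00 (SE 0.10), or 2.00-fold, relative to the wild type (adjusted p = 0.0141), but neither the difference of 0.41 between ED and empty vector cells nor that of -0.60 between wild-type and empty vector cells passed the test (adjusted p = 0.0908 and 0.125). Of 26 measured cathepsin and lysosomal genes it was the 1 that changed, where 0.321% of all named genes rose. In that list 14 genes had both ED arrays above both wild-type arrays and 1, Gusb, had both below. The shares over all named genes were 22.9% and 22.7%, and the median of the list was 0.08. The cathepsin genes Ctsl and Ctsd stood at 0.36 and 0.20 (adjusted p = 0.269 and 0.415).

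Genes of immune signalling rose in small number. Of 18 measured interferon response genes 2 rose, Parp12 and Irf1. Of 31 measured chemokine, cytokine and NF-kB genes 2 rose, Ccl20 and Irf1, so Irf1 is counted in both lists. The share of all named genes that rose was 0.321%. Irf1 encodes a transcription factor induced by interferons. It read 7.62 and 7.71 in ED cells, against 7.03 and 7.14 in wild-type cells, with 6.98 and 7.09 in CD cells and 7.001 and 6.926 in empty vector cells, and rose by 0.58 (SE 0.09) (limma, adjusted p = 0.0443). The other 6 arrays lay close together below both ED arrays. Psme2, the gene of an interferon-inducible activator of the proteasome, named after its values were seen, read 10.79 and 10.78 in ED cells, against 10.23 and 10.26 in wild-type cells (0.54, adjusted p = 0.0398). Parp12, an interferon-induced gene of the ADP-ribosyltransferase family, read 7.19 and 7.29 in ED cells, against 6.46 and 6.63 in wild-type cells, with 6.87 and 7.03 in CD cells and 6.12 and 6.17 in empty vector cells. It rose by 0.70 (adjusted p = 0.0299), but the CD arrays lay just under the ED arrays and that difference, 0.29, did not pass the test (adjusted p = 0.248).

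Ccl20, the ligand of the chemokine receptor CCR6, was the only changed probe set whose ED arrays did not stand outside the other 6. It read 7.95 and 8.05 in ED cells, against 7.38 and 7.25 in wild-type cells, with 7.01 and 7.07 in CD cells and 8.16 and 8.10 in empty vector cells. The ED and empty vector arrays were close, and the wild-type and CD arrays were low. ED cells exceeded wild-type cells by 0.69 (SE 0.09), or 1.61-fold (adjusted p = 0.0203), and differed from empty vector cells by -0.13 (adjusted p = 0.526). Wild-type cells were lower than empty vector cells by a difference of -0.82 (adjusted p = 0.033). The related gene Ccl2 did not follow, with 7.48 and 7.49 in ED cells, against 7.502 and 7.378 in wild-type cells, 6.80 and 6.94 in CD cells and 8.88 and 8.84 in empty vector cells (ED minus wild type 0.04, adjusted p = 0.905).

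The Irf1 promoter is printed because Irf1 is the one transcriptional regulator of the interferon list among the rises and interferons act on it through STAT proteins, which bind sites of the form TTCNNNGAA. The match is in capitals and begins 142 bases before the annotated start (RefSeq, GRCr8, plus strand, chr10:38417685-38417984).
Irf1: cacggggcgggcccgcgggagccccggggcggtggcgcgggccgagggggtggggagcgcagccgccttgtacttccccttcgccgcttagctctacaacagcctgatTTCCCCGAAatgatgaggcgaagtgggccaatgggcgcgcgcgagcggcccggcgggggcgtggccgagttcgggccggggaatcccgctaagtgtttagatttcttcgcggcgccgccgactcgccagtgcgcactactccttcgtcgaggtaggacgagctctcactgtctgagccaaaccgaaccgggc

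Searched on both strands, TTCNNNGAA occurred in the promoters of 3 of the 29 genes that rose, Crip1, Irf1 and Klf4, and of 1 of the 8 that fell, Ccdc80. The share over all 27457 promoters was 8.68%, so the counts lie near the background. The Irf1 promoter also holds GGCGCC, which does not overlap the capitals.

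The named falls were 8 genes. Fbln2 encodes fibulin-2, a glycoprotein of basement membranes and elastic fibres. It read 6.79 and 6.71 in ED cells, against 7.61 and 7.43 in wild-type cells, with 7.74 and 7.52 in CD cells and 7.54 and 7.51 in empty vector cells, and fell by 0.77 on the log2 scale (SE 0.10), or 1.70-fold (adjusted p = 0.0209). Ccdc80, a gene of a secreted matrix-binding protein, read 5.90 and 5.85 in ED cells, against 6.66 and 6.56 in wild-type cells, with 6.64 and 6.57 in CD cells and 6.67 and 6.73 in empty vector cells, and fell by 0.73 (SE 0.09), or 1.66-fold (adjusted p = 0.0141). In both genes the wild-type, CD and empty vector arrays overlapped and the ED arrays were clear below them. They were the 2 falls among 34 measured extracellular matrix genes, of which 0 rose and whose median was -0.01. Of all named genes 0.0642% fell and 0.321% rose. In that list 10 genes had both ED arrays below and 10 both above the wild-type arrays, against 22.7% and 22.9% of named genes. The osteopontin gene Spp1 stood at -0.51 (adjusted p = 0.0856) and the elastic fibre gene Efemp2 at -0.41 (adjusted p = 0.155), while 0 of 11 measured matrix proteases and their inhibitors changed, or reached an unadjusted p under 0.05 in limma.

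Maf, a basic leucine zipper transcription factor gene, had the largest fall among named genes, with 5.13 and 5.45 in ED cells, against 6.04 and 6.15 in wild-type cells (-0.81, SE 0.12, or 1.75-fold, adjusted p = 0.0398). Its other 2 tested probe sets gave -0.00113 and 0.31 (adjusted p = 0.998 and 0.482), so the fall rests on 1 of 3. Adprm, a gene of a nucleotide diphosphatase, read 8.70 and 8.65 in ED cells, against 9.33 and 9.42 in wild-type cells, with 9.79 and 9.82 in CD cells and 8.83 and 8.81 in empty vector cells. At this probe set the ED arrays were the lowest but near the empty vector arrays, and the CD arrays were the highest. Adprm fell by 0.70 (SE 0.08), or 1.62-fold (adjusted p = 0.0141), while the difference from empty vector cells, -0.15, did not pass the test (adjusted p = 0.435). The other tested probe set of Adprm gave -0.57 and was not called (adjusted p = 0.148). There the ED arrays, at 4.27 and 4.38, overlapped the empty vector arrays, at 4.28 and 4.47. Ybx3, a gene of a cold-shock domain protein that binds DNA and RNA, read 9.65 and 9.53 in ED cells, against 10.27 and 10.10 in wild-type cells, and fell by 0.60 (adjusted p = 0.0443). The other falls were in Tmem223, Alg13l1 and Cib2, a calcium- and integrin-binding protein gene, at -0.67, -0.64 and -0.55 (adjusted p = 0.0348, 0.0423 and 0.0464). Ybx3 and Alg13l1 were not called between ED and CD cells (-0.39 and -0.46, adjusted p = 0.11 and 0.0795). A larger difference, -1.06 in Bend5, which read 3.59 and 3.76 in ED cells and 4.68 and 4.80 in wild-type cells, was not called (adjusted p = 0.0608) and lay under the filter level on all 4 of these arrays.

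**Figure D3:**
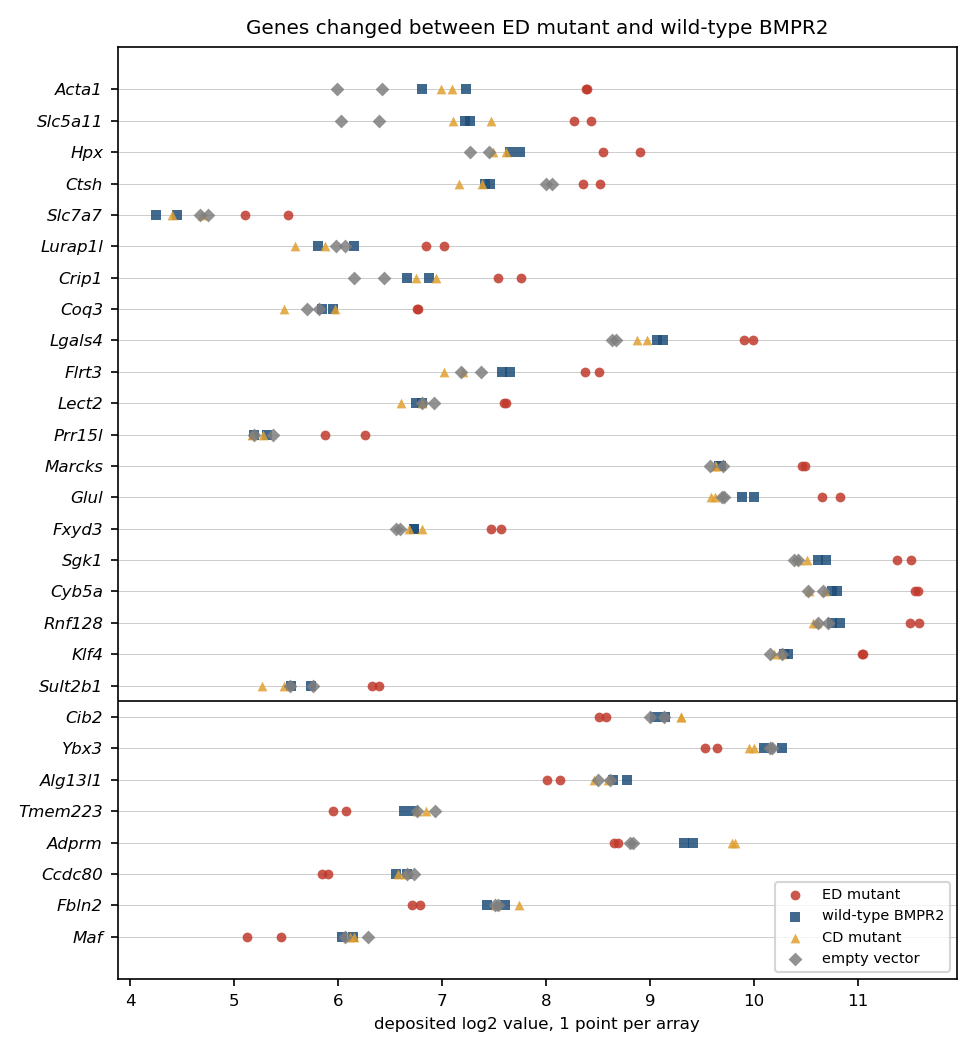
Deposited log2 values (horizontal axis), 1 point per array, of the 20 named genes with the largest rises (above the line) and the 8 named genes that fell (below it) between ED mutant and wild-type cells. Red circles are ED mutant, blue squares wild-type BMPR2, orange triangles CD mutant and grey diamonds empty vector arrays. In all 28 genes both red points lie outside the range of the other 6, and in Adprm the grey points lie close to them.

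The BMP pathway itself showed 0 changed genes between ED and wild-type cells in the limma fit. At an unadjusted p under 0.05 there were 1 of 15 target genes, 0 of 19 receptors and Smads and 4 of 24 ligands and antagonists, against 1310 of 10904 named genes. Among 15 measured BMP target genes the differences ran from -0.15 to 0.27, with a median of 0.06. Of the 15, 6 had both ED arrays above and 3 both below the wild-type arrays, against 22.9% and 22.7% of named genes. Id1, a direct Smad target that encodes an inhibitor of differentiation factors, read 10.64 and 10.63 in ED cells, against 10.61 and 10.41 in wild-type cells, with 10.46 and 10.42 in CD cells and 10.97 and 10.94 in empty vector cells. Id2, its relative, read 11.09 and 11.02 in ED cells, against 10.85 and 10.72 in wild-type cells, with 10.42 and 10.49 in CD cells and 11.22 and 11.15 in empty vector cells. Id3 read 8.70 and 8.65 in ED cells, against 8.93 and 8.62 in wild-type cells, with 8.80 and 8.77 in CD cells and 9.74 and 9.45 in empty vector cells. The empty vector arrays were the highest for all 3 Id genes, and the ED and wild-type arrays overlapped for Id3 only. The differences between ED and wild-type cells were 0.12, 0.27 and -0.10 (adjusted p = 0.67, 0.292 and 0.826). Between ED and CD cells Id2 differed by 0.60 and passed the test (limma, adjusted p = 0.0184). The inhibitory Smad genes Smad6 and Smad7 stood at -0.15 and -0.13 (adjusted p = 0.576 and 0.67).

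Among 19 measured receptors and Smads 0 changed, with a median of -0.04 and differences from -0.23 to 0.27. Acvr1, a type I BMP receptor gene, read 8.42 and 8.40 in ED cells, against 8.25 and 8.23 in wild-type cells (0.17, adjusted p = 0.648). The type I receptor gene Bmpr1a and the Smad genes Smad1, Smad5 and Smad4 gave -0.10, -0.13, -0.12 and -0.09, none near the threshold (adjusted p = 0.689 to 0.83). Among 24 measured ligands and antagonists 0 changed. The activin antagonist gene Fst read 9.92 and 9.71 in ED cells, against 10.36 and 10.25 in wild-type cells, and was the member with the lowest p (-0.49, adjusted p = 0.175), followed by Tgfb2 at -0.41 (adjusted p = 0.289). Between ED and CD cells Fst differed by -0.67 and passed the test (limma, adjusted p = 0.0429), while Tgfb2 did not (-0.42, adjusted p = 0.217). A p above the threshold with 2 arrays in each group does not show that these genes were alike in ED and wild-type cells.

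The other lists gave few changes or none. There were 0 changed genes among 30 measured cell cycle and DNA replication genes, 23 p53 targets, 29 hypoxia and glycolysis genes, 24 cholesterol synthesis genes, 19 NRF2 targets and metallothioneins, 31 genes of the unfolded protein response and heat shock, and 28 vasoactive peptides, receptors and prostanoid enzymes. In these 7 lists 2 to 6 genes reached an unadjusted p under 0.05 in limma, where 1310 of 10904 named genes did. The counts ran from 2 of 30 cell cycle genes to 6 of 19 NRF2 targets and metallothioneins. The medians of the 7 lists ran from -0.04 for vasoactive genes to 0.09 for p53 targets. In the cell cycle list 9 genes had both ED arrays below and 2 both above the wild-type arrays, against 22.7% and 22.9% of named genes. Among 6 endothelial and 9 leukocyte genes 0 changed, or reached an unadjusted p under 0.05 in limma. Apln, the gene of the vasodilator peptide apelin, stood at -0.43 against the wild type (adjusted p = 0.224) and at -1.05 against the CD mutant (adjusted p = 0.00546). Ndrg1, a hypoxia-inducible gene, stood at 0.52 (adjusted p = 0.105).

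**Figure D4:**
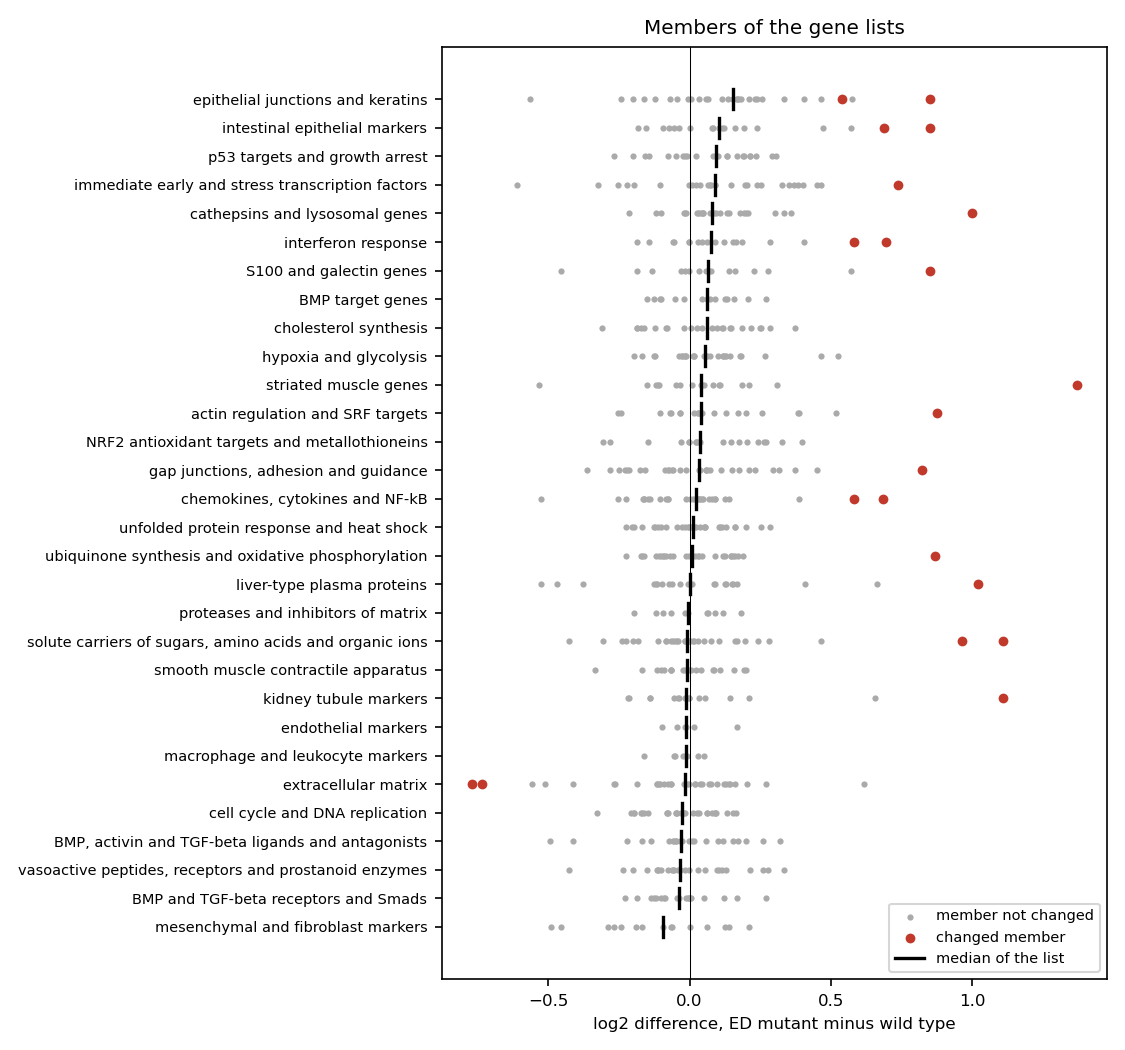
Log2 difference between ED mutant and wild-type cells (horizontal axis) for every measured member of 30 gene lists (1 line each), each gene by its brightest probe set. Red points are changed members, grey points the others, and black ticks list medians, which run from -0.09 for mesenchymal and fibroblast markers to 0.15 for epithelial junctions and keratins. Fbln2 and Ccdc80 in the extracellular matrix list are the only red points below 0.

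The changed genes were also read in the wild-type, CD and empty vector cells together, without the kinase domain (KD) mutant, which was left out. At 54 of the 55 changed probe sets both ED arrays lay outside the range of the 6 wild-type, CD and empty vector arrays, where 7.74% of all tested probe sets had both ED arrays above and 8.33% had both below. The ED and wild-type arrays alone did not overlap at 43.2% of all tested probe sets. The comparison with the wild type chose these 55, so the number is a description. Both wild-type arrays lay outside the range of the other 6 at 5 of the 55, against 5.74% of all tested probe sets. These 5 included Slc22a23, Tp53inp2 and Alg13l1.

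The direct contrast of the mutants called more. Between ED and CD cells 145 probe sets (0.742%) changed, of 2619 (13.4%) at an unadjusted p under 0.05, 89 of them (0.456%) higher and 56 (0.287%) lower in ED cells. This contrast shares the ED arrays with that against the wild type, so the values of the 28 leading genes are only set side by side. Of these, 25 also passed the test between ED and CD cells, and Slc7a7, Alg13l1 and Ybx3 did not. Leaving out 1 array at a time left 24 to 91 changed probe sets between ED and CD cells.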

How the data were processed

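RNA was measured on single-colour Affymetrix rat arrays. Per the submitters' processing notes, the authors used RMA to make the log2 values they deposited. The sources used here give no RMA version and do not say which arrays were normalized as 1 set. The method removes background and gives arrays a common distribution, and it shrinks differences between dim signals. No detection calls were used, so no probe set is called absent, and precision is limited by how few arrays there are. None of the values used was missing, and they ran from 2.20 to 14.55.

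The platform annotation named 20826 of 31099 probe sets with 1 gene, 436 with several and 9780 with none. For 20758 probe sets the symbol was replaced by the current one for its Entrez identifier in RefSeq's GRCr8 table. The 57 control probe sets were left out. A probe set was tested if it reached the 40th percentile of the 8 arrays, log2 4.90, on at least 2 of them, and 19534 did. The KD mutant arrays were left out of filter and fit. A limma model (version 3.58.1, R 4.3.3) of 4 group means was used (4 residual degrees of freedom, 9.68 after moderation), with two-sided p-values adjusted by Benjamini-Hochberg over all tested probe sets. SE is the moderated standard error. The fit was tested on simulated data. Groups came from the labels. Replicate numbers 1 and 2 were not taken as pairs.

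The members compared and the 30 gene lists (970 entries) were chosen with earlier results of these data known. Named genes are the Bmpr2 probe sets, then up to 20 largest rises and 10 largest falls among changed genes whose arrays do not overlap, up to 4 members of each list with the lowest p, and the cell type markers. Others were chosen after their values were seen. For lists each gene is its brightest probe set, over 10904 genes. Cell type levels are the log2 of markers summed on the linear scale. Alternatives were no filter, the 60th percentile, quantile normalization, centring on the array median, an intensity trend with robust variance, a replicate block, all 10 arrays, only the arrays of the groups compared, genes in place of probe sets, an adjusted p under 0.01, a 1.5-fold minimum, and leaving out each array in turn. For lists they were the mean of a gene's probe sets, quantile normalization and centring.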

Additional observations from a re-analysis of the deposited data

Results flagged for a closer look

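For 25 of the 28 genes named first, the contrast of ED with CD cells, in which the wild type cancels, had an adjusted p under 0.05 in limma, against 0.742% of all tested probe sets. The 28 genes were chosen for their difference between ED and wild-type cells, and both contrasts use the same ED arrays, so a high share follows from the choice and is no independent evidence. The ED minus CD differences on the log2 scale follow. Muscle and actin genes differed by 1.34 for Acta1, 0.80 for Crip1 and 0.85 for Marcks. Transport and metabolic genes differed by 1.07 for Slc5a11, 1.14 for Glul, 0.95 for Cyb5a, 1.04 for Coq3 and 0.99 for Sult2b1. Regulators and membrane genes differed by 0.97 for Sgk1, 0.77 for Fxyd3, 0.96 for Rnf128, 1.33 for Flrt3, 0.82 for Klf4, 1.21 for Lurap1l and 0.84 for Prr15l. Secreted, epithelial and lysosomal genes differed by 1.18 for Hpx, 1.02 for Lgals4, 0.89 for Lect2 and 1.16 for Ctsh. Among the genes lower in ED cells the values were -0.85 for Maf, -0.88 for Fbln2, -0.73 for Ccdc80, -1.13 for Adprm, -0.79 for Tmem223 and -0.75 for Cib2.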

How the results depend on the processing

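Beside 55 changed probe sets between ED and wild-type cells (44 higher, 11 lower in ED cells) and 145 between ED and CD cells, the alternatives gave these counts, and the cause of each move was not tested unless its construction shows it. Without a filter there were 28 (24 higher, 4 lower) and 79. With the 60th percentile filter there were 133 (95 and 38) and 305. With an intensity trend and robust variance there were 407 (231 and 176) and 647. With genes in place of probe sets there were 94 (68 and 26) between ED and wild-type cells. All 10 arrays gave 37 (31 higher, 6 lower) between ED and wild-type cells, and 79 between ED and CD cells. With only the arrays of the groups compared, which leaves fewer arrays to estimate the spread, there were 8 (8 and 0; 2195 at an unadjusted p under 0.05) and 43. At an adjusted p under 0.01 there were 0 (0 and 0, lowest adjusted p 0.0141, 2152 at an unadjusted p under 0.05) and 38. A 1.5-fold minimum left 92 between ED and CD cells. Quantile normalization and centring on the median gave 58 and 62 between ED and wild-type cells.

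The replicate block gave 31 (27 and 4) and 93. Across probe sets, the difference between replicates 1 and 2 of ED cells correlated with that of wild-type cells at 0.0456. Its correlation with that of CD cells was 0.157. The replicate numbers were not taken as pairs. Leaving out each array in turn gave 0 to 31 (0 to 27 higher, 0 to 4 lower) between ED and wild-type cells and 24 to 91 between ED and CD cells. The count between ED and wild-type cells was 0 without either ED array or either wild-type array in limma (1483 to 2221 at an unadjusted p under 0.05), 21 and 26 without an empty vector array, and 31 without either CD array. Every one of the 55, where tested, kept its direction under all of these settings. The settings reuse the arrays by which the 55 were chosen, so this is no independent evidence. Beside 98.2% as reported, 92.9% to 98.4% of changed probe sets had both ED arrays outside the other 6 without a filter, with the 60th percentile filter, quantile normalization, centring, the intensity trend, genes in place of probe sets or the 1.5-fold minimum, alternatives added after seeing the data and not run for the other settings. With the mean of a gene's probe sets the median moved to -0.00701 for receptors and Smads, -0.05 for extracellular matrix, 0.02 for hypoxia and -0.01 for gap junctions and adhesion.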
